A study of Mus musculus with 10 samples.

Results

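A set of 1176 chromatin regions was open more widely after 4 hours of forskolin than in control adipocytes and was near the control level after 3 days. They are called transiently opened peaks here. They were chosen from a deposited count table of 122984 peaks by their measured values. The mean of the 4-hour libraries was at least 2 CPM (counts scaled to the same library total) and at least 2 times the control mean. Both 4-hour libraries lay above both control libraries. The means of 3 days of forskolin and of 3 days of rosiglitazone were each less than 25% above the control mean, with 0.25 CPM added before every ratio. The 4-hour conditions alone were met by 13263 peaks, of which the transiently opened peaks made up 8.87%. For comparison, 2721 persistently opened peaks met the same 4-hour and rosiglitazone conditions but stayed at 2 times control or more after 3 days of forskolin. Only the 1-day forskolin libraries took no part in the choice. Values of the other groups therefore describe the set and carry no test.

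The assay was ATAC-seq, which uses a transposase to cut and tag exposed DNA. MAP cells are adipocyte progenitors of the mouse made immortal as a line, and the nuclei came from the fat cells they form. Libraries were made 2 per group. Forskolin was given in 3 groups, lasting 4 hours in one, 1 day in another and 3 days in the last, rosiglitazone was given for 3 days in a separate group, and control cells had vehicle. All groups, control included, had been induced for 2 days with insulin, 500 µM isobutylmethylxanthine, 1 µM dexamethasone and 1 µM rosiglitazone, and then kept on insulin and rosiglitazone for 2 more days. Isobutylmethylxanthine blocks the phosphodiesterases that break down cAMP, so all cells had met a rise in cAMP and a PPARγ agonist before treatment at day 7 to 8. No forskolin dose was given in the sources used here. The same control group served all forskolin times, and its time on vehicle is not in the sample labels. Whether the groups were harvested at the same age of culture cannot be told from them. Times are compared between groups of libraries, not within a culture. Nothing says that libraries within a group are from separate cultures, so the p-values measure only the spread between these libraries, which may be technical.

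Forskolin activates adenylyl cyclase directly and raises cAMP, the messenger through which noradrenaline acts on fat cells. Protein kinase A then phosphorylates CREB, which binds the cAMP response element (CRE), and immediate-early genes such as the Fos and Jun families are induced within a short time. Fos and Jun proteins form AP-1, a factor known to bind at enhancers whose chromatin opens on stimulation. Feedback is built into the pathway, through phosphodiesterases and through repressor forms made from the Crem gene.

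The sequence under the peaks was available only where a peak met a RefSeq start-site window, which runs from 250 bases before to 50 bases after an annotated gene start in GRCm38.p6. Of the transiently opened peaks on chromosomes with such windows, 14 of 1149 (1.22%) touched one, against 9.47% of all peaks. In 10 windows a transiently opened peak covered at least 150 bases, and 6 of these 10 held the AP-1 motif TGANTCA, searched on both strands. The share was 13 of 28 windows (46.4%) under persistently opened peaks, 6.31% of 13356 windows covered to the same extent by any peak, and 7.81% of all 32817 windows. All 6 matches lay inside the peak. AP-1 was singled out of 12 motifs after the shares were seen. The full CRE, TGACGTCA, was in 0 of the 10 windows, in 3.26% of windows covered by any peak and in 1.79% of all windows. Its half-site TGACG, which the full CRE also contains, was in 2 of the 10, in 32.1% of windows covered by any peak and in 20.8% of all windows. Of the 6 windows with an AP-1 match, 5 are shown because they carry this count. The other lies at Prl2c3, a placental hormone gene with close copies nearby. Capitals mark TGANTCA and, where present, TGACG or its reverse complement.
B230216N24Rik start window (chr1:98047744-98048043, - strand): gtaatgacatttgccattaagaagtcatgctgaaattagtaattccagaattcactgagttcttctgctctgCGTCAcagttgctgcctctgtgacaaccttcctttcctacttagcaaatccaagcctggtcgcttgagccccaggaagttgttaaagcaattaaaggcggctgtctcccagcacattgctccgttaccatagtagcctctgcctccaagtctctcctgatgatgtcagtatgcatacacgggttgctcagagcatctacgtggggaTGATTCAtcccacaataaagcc
Scyl3 start window (chr1:163928850-163929149, + strand): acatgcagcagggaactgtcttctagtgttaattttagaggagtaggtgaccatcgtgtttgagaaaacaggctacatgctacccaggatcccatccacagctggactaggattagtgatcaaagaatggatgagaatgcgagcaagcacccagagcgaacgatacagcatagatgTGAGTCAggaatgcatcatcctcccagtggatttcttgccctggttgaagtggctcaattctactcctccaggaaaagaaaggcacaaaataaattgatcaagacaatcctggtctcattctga
Gm40681 start window (chr10:67778324-67778623, - strand): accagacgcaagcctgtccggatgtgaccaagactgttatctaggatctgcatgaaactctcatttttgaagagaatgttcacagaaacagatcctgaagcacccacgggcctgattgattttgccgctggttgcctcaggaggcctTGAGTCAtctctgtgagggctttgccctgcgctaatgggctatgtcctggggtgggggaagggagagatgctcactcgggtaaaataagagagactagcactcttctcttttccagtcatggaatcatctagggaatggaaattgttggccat
Gm40221 start window (chr4:107937221-107937520, + strand): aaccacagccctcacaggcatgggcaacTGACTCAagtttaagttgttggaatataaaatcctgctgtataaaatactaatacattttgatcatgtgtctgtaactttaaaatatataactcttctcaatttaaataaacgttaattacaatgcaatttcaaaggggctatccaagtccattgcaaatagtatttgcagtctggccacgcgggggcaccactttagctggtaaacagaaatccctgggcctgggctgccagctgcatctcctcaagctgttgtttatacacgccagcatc
Gm52921 start window (chr6:134450827-134451126, + strand): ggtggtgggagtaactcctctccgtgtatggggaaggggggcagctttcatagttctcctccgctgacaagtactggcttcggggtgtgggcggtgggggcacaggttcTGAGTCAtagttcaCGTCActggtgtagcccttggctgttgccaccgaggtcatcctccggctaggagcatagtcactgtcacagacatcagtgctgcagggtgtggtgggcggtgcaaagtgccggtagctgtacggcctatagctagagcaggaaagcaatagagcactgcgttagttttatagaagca
Scyl3 encodes a protein with a kinase-like domain, and the other 4 starts belong to long noncoding RNA models. The B230216N24Rik window lies inside the Pam gene, whose product amidates peptide hormones. The Gm52921 window lies inside Lrp6, which encodes a Wnt co-receptor. With so few windows, these shares describe only the small part of the set that lies at annotated starts.

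The peak over the B230216N24Rik start (chr1:98047705-98048104) held 3.45 and 3.07 CPM with rosiglitazone and 2.88 and 2.76 CPM in control, then 10.3 and 7.32 CPM after 4 hours of forskolin, 5.88 and 6.07 CPM after 1 day and 3.81 and 2.69 CPM after 3 days. Both 1-day libraries lay between those of control and 4 hours. At the Scyl3 start (chr1:163928920-163929146) the peak held 1.83 and 1.96 CPM with rosiglitazone and 2.02 and 2.83 CPM in control, then 5.91 and 4.96 CPM after 4 hours of forskolin, 3.47 and 2.90 CPM after 1 day and 3.01 and 2.69 CPM after 3 days. Here 1 control library nearly reached the lower 1-day library.

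The 10 libraries held between 10410233 and 18935287 counts in peaks. The median transiently opened peak had 64 counts in each 4-hour library, 41 and 42 counts in the 1-day libraries and 16 and 18 counts in the control libraries, so single peaks are measured with coarse precision. Adipocyte identity was checked at gene ends, meaning peaks no more than 1 kb from where a gene's annotation starts or stops. All 8 adipocyte markers had such a peak, and their summed level was 391 to 394 CPM with rosiglitazone and 322 to 348 CPM in control, then 292 to 321 CPM after 4 hours of forskolin, 287 to 304 CPM after 1 day and 308 to 321 CPM after 3 days. Of the progenitor markers 4 of 7 had a gene-end peak, with sums of 50.6 to 58.5 CPM with rosiglitazone and 63.8 to 65.0 CPM in control, then 71.1 to 75.2 CPM after 4 hours, 79.3 to 84.8 CPM after 1 day and 64.0 to 76.1 CPM after 3 days. Both 1-day libraries were thus below both controls in the adipocyte sum and above them in the progenitor sum, and the part of this in the 1-day results was not tested. For endothelial markers it was 2 of 4, with 7.49 to 11.4 CPM across libraries. Whether less accessible chromatin per nucleus or fewer nuclei with an open site lowers a value cannot be told apart in bulk nuclei.

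The membership of the set leaned on single libraries and on the constant added before ratios. When control library S1 was left out of the rule, 568 of the 1176 peaks (48.3%) were chosen again, and without S2 it was 628 (53.4%). Leaving out 3-day library S7 gave 2104 peaks, of which 1067 were in the set, and leaving out S8 gave 949, of which 747 were in the set. With 1 CPM added before ratios in place of 0.25 CPM, 553 of the 1176 peaks (47.0%) were chosen again. With TMM factors in the CPM of the rule it was 914 (77.7%). Near the 3-day limit, the Id2 peak just inside had a ratio of 3 days of forskolin to control of 1.2494, while the Ank peak just outside had 1.2502. In all, 6831 peaks failed that limit alone. At the 4-hour limit the nearest peak inside, at Cbx5, had a ratio of 2.001 and the nearest outside, at Efnb2, 2.000. The nearest peaks to the 2 CPM floor were at Tnrc6a, inside with a 4-hour mean of 2.0005 CPM, and at Prxl2a, outside with 1.9995 CPM. The set is cut from a continuous range of responses.

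In sum over the set, accessibility was 2360 and 2224 CPM in the rosiglitazone libraries, 2762 and 2482 CPM in control, 7057 and 6423 CPM after 4 hours of forskolin, 4190 and 3997 CPM after 1 day, and 3141 and 2566 CPM after 3 days. The 1-day libraries, which the choice did not use, stood between all control and all 4-hour libraries. The rosiglitazone libraries were the lowest of the 10. For persistently opened peaks the sums were 5168 ± 214 CPM in control, 18746 ± 1222 CPM after 4 hours, 16397 ± 678 CPM after 1 day and 14186 ± 1901 CPM after 3 days (SD, n = 2 each).

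**Figure D1:**
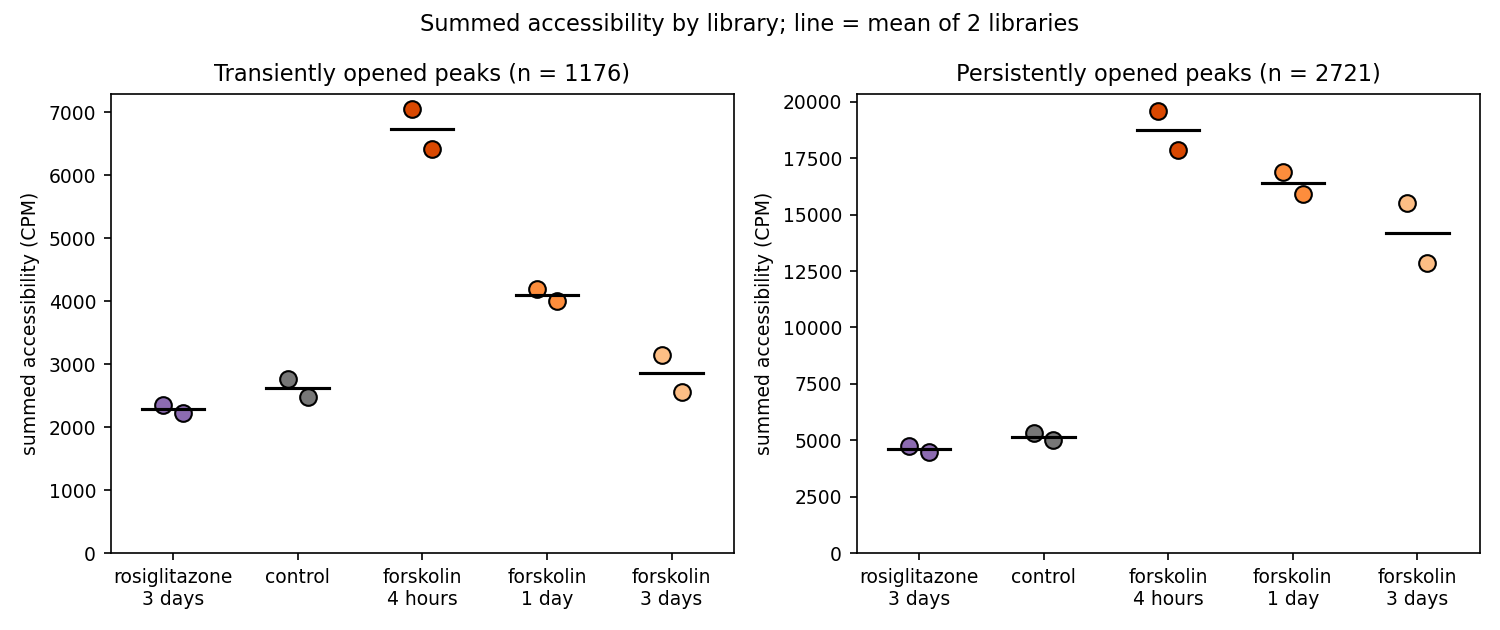
Summed CPM over the 1176 transiently opened peaks (left) and the 2721 persistently opened peaks (right) in each of the 10 libraries, with a line at the mean of each group of 2. On the left the 1-day libraries, at 4190 and 3997 CPM, lie between the 4-hour and the control libraries, and on the right they lie below both 4-hour and above both 3-day libraries.

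At 1 day the typical transiently opened peak stood nearer to the control level than to the 4-hour level. The median ratio to control was 1.48 after 1 day, with quartiles of 1.26 and 1.76 and a range of 0.451 to 2.97. On the log2 scale this median was 0.57, against 1.49 for persistently opened peaks and 0.17 for all peaks. Of the gain in CPM that a peak had made by 4 hours, the median share still present at 1 day was 33.7% (quartiles 17.2% and 49.7%) in transiently opened peaks and 79.6% (59.8% and 106.5%) in persistently opened peaks. Since the control, 4-hour and 3-day libraries entered the choice of both sets, these medians and shares can be moved by it.

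**Figure D2:**
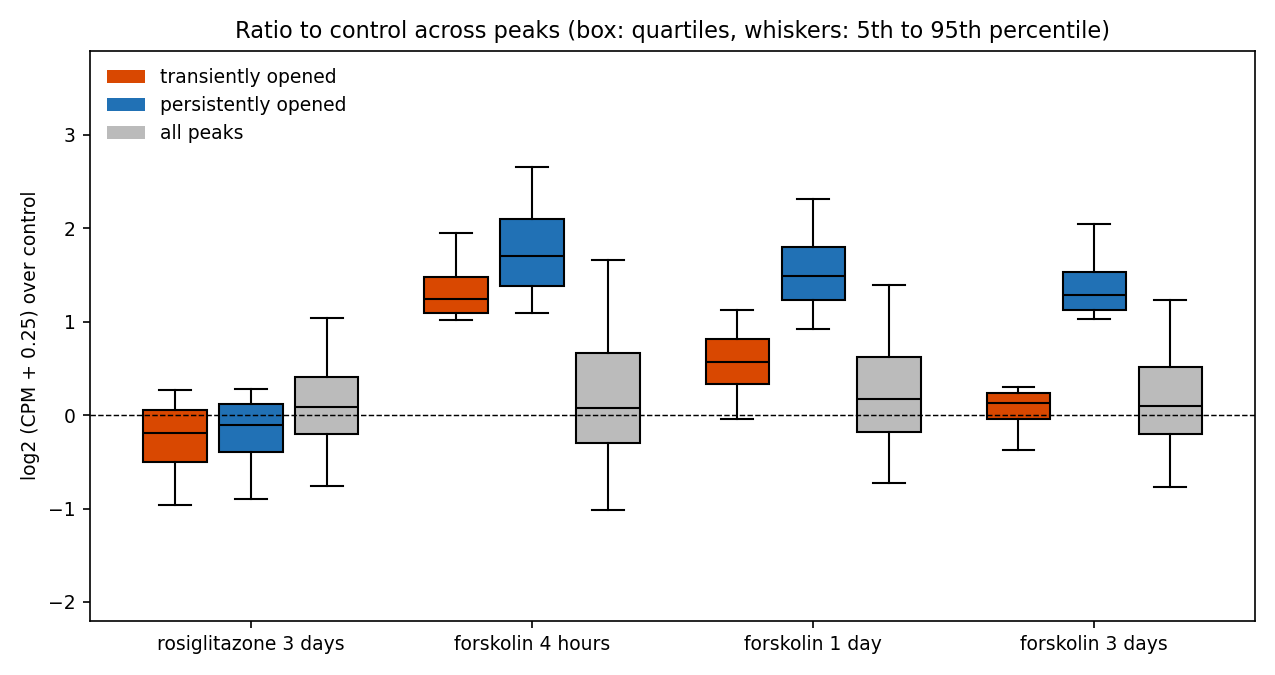
Ratio to control, as log2 of CPM plus 0.25, across the 1176 transiently opened peaks, the 2721 persistently opened peaks and all 122984 peaks. Boxes span the quartiles with a line at the median, and whiskers reach the 5th and 95th percentiles. At 1 day the medians are 0.57 for transiently opened, 1.49 for persistently opened and 0.17 for all peaks. The 4-hour, 3-day and rosiglitazone boxes are limited by how the peaks were chosen. The 1-day ratios share their control libraries with that choice.

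After 1 day, 124 of the 1176 peaks (10.5%) were still at 2 times control or more, a level that 12.2% of all peaks reached. Another 766 (65.1%) stood at least 25% above control but under 2 times control, against 28.3% of all peaks. The remaining 286 (24.3%) were less than 25% above control, where 59.6% of all peaks lay, and 70 of them were below control. In persistently opened peaks 91.5% were at 2 times control or more. Those peaks were chosen at 2 times the same control mean or more at 4 hours and at 3 days. Nothing is therefore read from this contrast with the set. Both 1-day libraries fell between all control and all 4-hour libraries in 703 transiently opened peaks (59.8%), against 10.3% of all peaks and 44.7% of persistently opened ones. Both lay above both controls in 815 peaks (69.3%, against 39.9% of all peaks), and both lay below both 4-hour libraries in 1052 (89.5%, against 22.5% of all peaks). The choice had already put both 4-hour libraries above both controls, which all peaks need not meet, so nothing is read from the comparison of these 3 shares with all peaks.

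**Figure D3:**
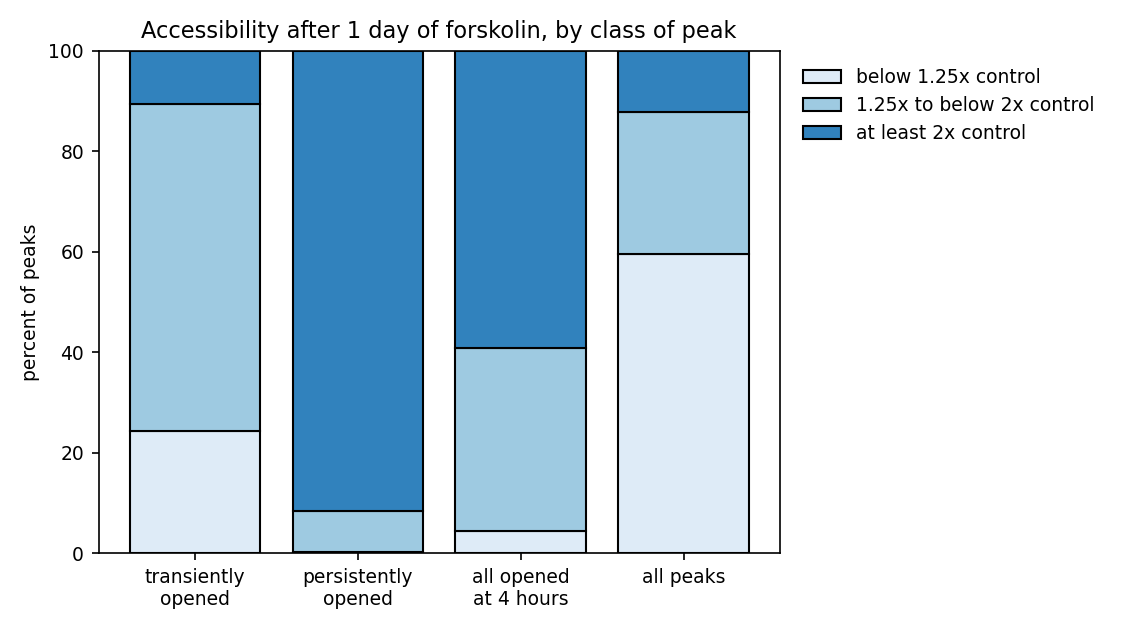
Percent of peaks whose 1-day mean was less than 25% above control, from there to below 2 times control, or at least 2 times control, in 4 classes of peaks. In transiently opened peaks 65.1% fall in the middle band, and in persistently opened peaks 91.5% fall in the highest. Both classes were chosen by ratios to the same control libraries, so nothing is read from their contrast.

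Peak by peak, the 1-day level was tested with edgeR's quasi-likelihood test and Benjamini-Hochberg adjustment over 118954 peaks, called at an adjusted p below 0.05. All 1176 transiently opened peaks passed the filter on low counts. Forskolin for 1 day gave higher accessibility than control in 170 of them (14.5%), while 12.9% of all peaks tested were called higher, a share close to that of the set. Control levels had also entered the choice. It was 17.8% among peaks with at least 2 CPM at 4 hours. Of persistently opened peaks 2429 (89.3%) were called. These had been chosen high against the same controls at 4 hours and 3 days, so nothing is read from that contrast. The 1 peak called lower lay in Tafa1, where 9.79% of all peaks were called lower. The median fitted log2 difference from control was 0.50 in the set and 0.04 over all peaks. With library size alone as the scaling the medians were 0.66 and 0.19, and 268 peaks were called higher, where 17.1% of all peaks were. Leaving 1 library out of the fit gave a median in the set of 0.60 without control library S1 and 0.44 without S2. It was 0.45 without 1-day library S5 and 0.51 without S6. Fewer peaks were called in each of these fits, in the set and over all peaks. Without S2, S5 or S6 the share called in the set was below that over all peaks.

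As a description, the 1-day level was called lower than at 4 hours in 407 of the 1176 peaks (34.6%), where 3.01% of all peaks were called lower. The median log2 difference was -0.84 in the set and -0.01 over all peaks. Of persistently opened peaks 268 (9.85%) were called lower. The 4-hour side was chosen high by the rule, so nothing is read from this count. With 1 library left out of the fit the median in the set was -0.74 without 4-hour library S3 and -0.90 without S4. It was -0.88 without 1-day library S5 and -0.82 without S6. Fewer peaks were called in each of these fits, in the set and over all peaks. Taking both comparisons together, 382 peaks were called lower than at 4 hours and not higher than control, 145 were higher than control and not lower than at 4 hours, 25 were both and 624 were neither. Against 3 days, 13 of the peaks were called higher at 1 day, where 0.0773% of all peaks were. The 3-day side was chosen low, so this too is a description. The median log2 difference of 1 day from 3 days was 0.49 in the set. It was 0.47 without 1-day library S5 and 0.51 without S6. Without 3-day library S7 it was 0.63, and without S8 it was 0.42. The number called was not stable across these fits, rising without S7 and falling without each of the others.

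The most accessible transiently opened peaks at 4 hours included those in or near Cd53, Bicral, Trip11, Col4a1, Sp1, Adra1b and Glis1. Glis1 encodes a Krüppel-like zinc finger factor. The peak in its gene body (chr4:107467985-107468960) held 9.85 and 11.0 CPM with rosiglitazone and 12.9 and 15.8 CPM in control, then 31.5 and 28.3 CPM after 4 hours of forskolin, 26.0 and 27.9 CPM after 1 day and 21.7 and 13.9 CPM after 3 days. It rose at 1 day relative to control by 0.75 ± 0.15 (log2 ± SE, adjusted p = 6.9e-05, edgeR), and its 1-day libraries came close to the lower 4-hour library. At 3 days library S8 lay between the controls and S7 lay above both.

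Adra1b encodes the alpha-1B adrenergic receptor, which signals through calcium rather than cAMP. A peak 18.3 kb from the nearer end of the gene (chr11:43919573-43920284) held 9.35 and 6.26 CPM with rosiglitazone and 11.2 and 11.5 CPM in control, then 30.9 and 30.8 CPM after 4 hours of forskolin, 17.1 and 16.2 CPM after 1 day and 13.9 and 13.8 CPM after 3 days. The forskolin libraries lay above both controls at every time, and the rosiglitazone libraries lay below them. The 1-day difference from control was 0.39 ± 0.15 on the log2 scale with an adjusted p of 0.053 (edgeR), which missed the threshold.

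Sp1 encodes a general zinc finger activator. The peak 10.9 kb outside the gene (chr15:102394983-102395411) held 17.6 and 15.1 CPM with rosiglitazone and 15.6 and 16.4 CPM in control, then 33.5 and 33.2 CPM after 4 hours of forskolin, 19.1 and 17.4 CPM after 1 day and 20.4 and 19.3 CPM after 3 days. The 1-day libraries lay just above both controls, with a fitted log2 difference of 0.03 ± 0.14 (SE).

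Col4a1 encodes a chain of type IV collagen, the network of basement membranes. Its peak (chr8:11249580-11250382) held 17.4 and 17.5 CPM with rosiglitazone and 12.5 and 16.2 CPM in control, then 34.1 and 33.1 CPM after 4 hours of forskolin, 22.2 and 17.9 CPM after 1 day and 20.1 and 15.8 CPM after 3 days. The 1-day libraries lay above both controls and overlapped the 3-day ones. Bicral encodes a subunit of a chromatin remodelling complex, and Trip11 a Golgi protein. The Bicral peak (chr17:46879721-46880400) held 18.9 and 19.8 CPM with rosiglitazone and 20.5 and 17.9 CPM in control, then 45.8 and 38.3 CPM after 4 hours of forskolin, 25.4 and 23.0 CPM after 1 day and 25.6 and 19.9 CPM after 3 days.

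Cd53, which encodes a tetraspanin of leukocytes, held the highest 4-hour level of the set. Its gene-end peak (chr3:106787811-106789192) held 25.2 and 23.4 CPM with rosiglitazone and 21.1 and 19.7 CPM in control, then 54.0 and 43.6 CPM after 4 hours of forskolin, 34.4 and 28.8 CPM after 1 day and 26.5 and 22.6 CPM after 3 days. The 1-day level rose above control by 0.48 ± 0.13 (log2 ± SE, adjusted p = 0.0053, edgeR), but the adjusted p was 0.0795 without control library S2 and 0.146 without 1-day library S5. Macrophage markers differed between groups as well. Of 6 such markers 3 had a gene-end peak, and their summed level was 29.5 to 30.0 CPM with rosiglitazone, 20.5 to 21.2 CPM in control, 29.7 CPM in both 4-hour libraries, 23.9 to 27.1 CPM after 1 day and 26.9 to 28.2 CPM after 3 days. Their part in the Cd53 result was not tested.

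**Figure D4:**
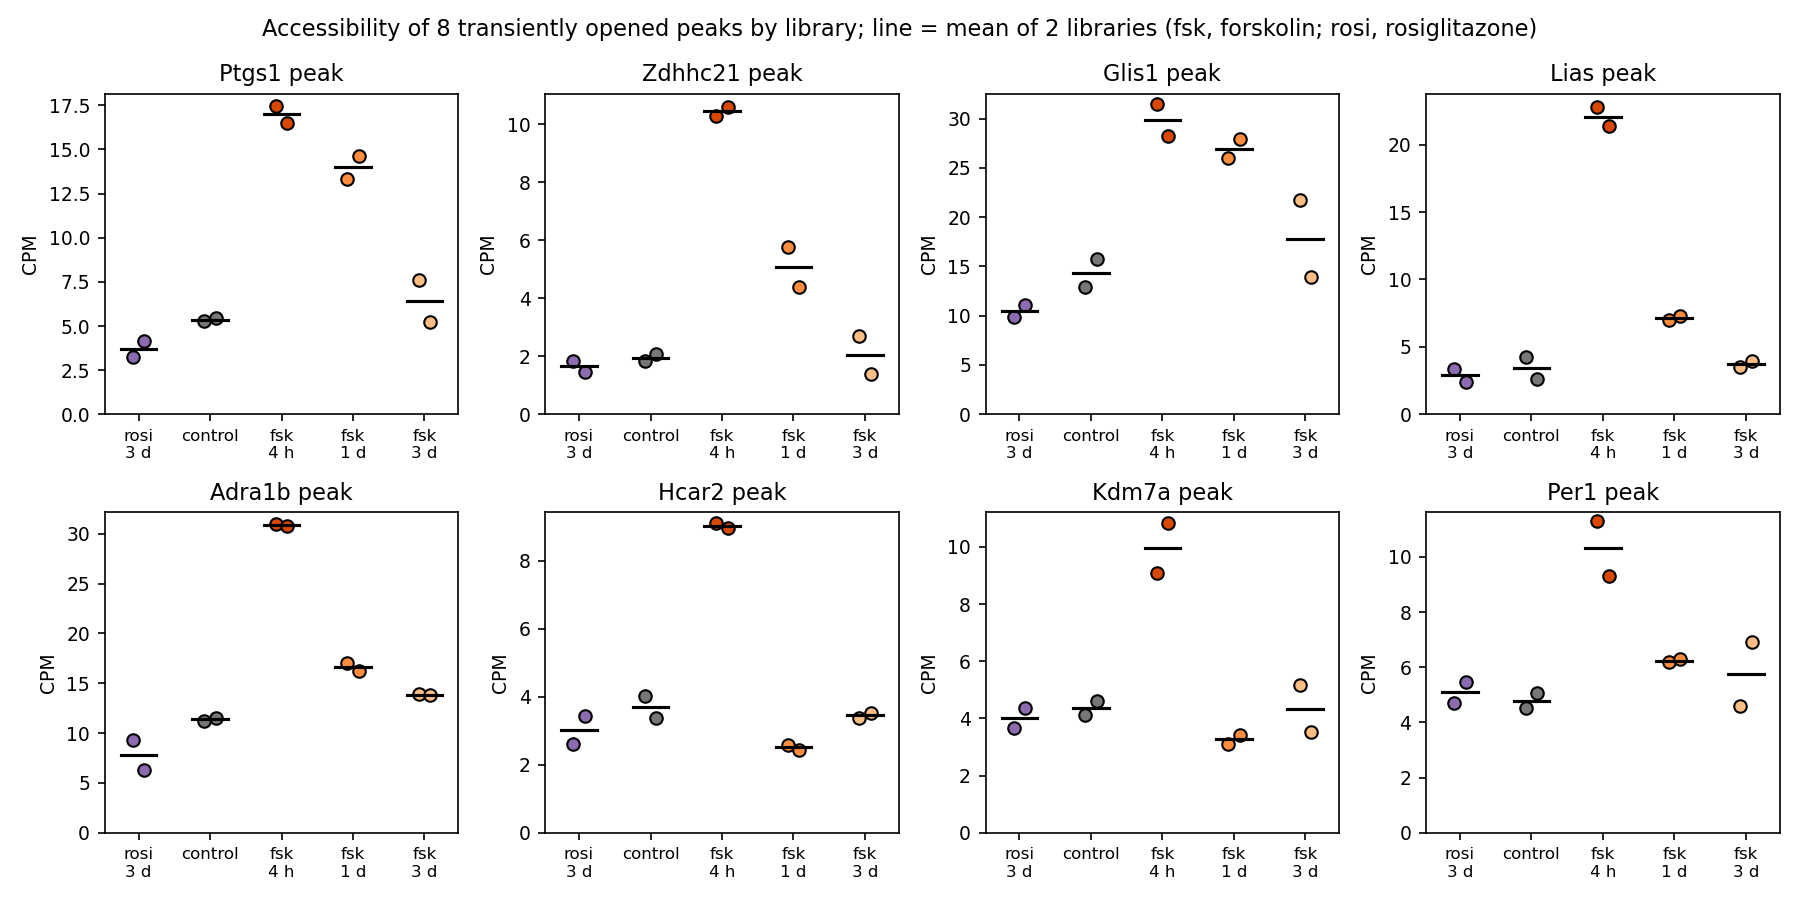
CPM of 8 transiently opened peaks in each library, with a line at the mean of each group of 2 and its own vertical scale in each panel. The Ptgs1 and Glis1 peaks remain close to their 4-hour level at 1 day, whereas the Hcar2 and Kdm7a peaks lie below both controls at 1 day.

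The largest 4-hour ratios to control belonged to peaks at M1ap, Msra, Exoc2, Lias, Mprip, Sppl3, Acbd3 and Tmco5, with ratios between 4.97 and 6.40. Several of these were nearly closed in control. At Exoc2, which encodes an exocyst subunit, the peak (chr13:30831409-30831650) had 50 and 29 counts after 4 hours against 0 and 5 counts in control, so its ratio depends on the 0.25 CPM added.

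The Lias peak was both wide and abundant. Lias makes lipoic acid, the cofactor of mitochondrial dehydrogenase complexes. The peak reaches over an end of the gene (chr5:65409320-65410993) and held 3.38 and 2.39 CPM with rosiglitazone and 4.23 and 2.60 CPM in control, then 22.8 and 21.4 CPM after 4 hours of forskolin, 7.00 and 7.29 CPM after 1 day and 3.50 and 3.91 CPM after 3 days. All forskolin libraries of 4 hours and 1 day lay above control, and the 3-day libraries lay among the controls. The 1-day level rose above control by 0.94 ± 0.23 (log2 ± SE, adjusted p = 0.0017, edgeR), a call that ended without control library S2 (adjusted p = 0.14).

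In M1ap, which is known for a role in male meiosis, the peak (chr6:82947982-82948520) held 0.844 and 0.0614 CPM with rosiglitazone and 0.192 and 0.613 CPM in control, then 3.92 and 3.93 CPM after 4 hours of forskolin, 0.647 and 0.634 CPM after 1 day and 0.491 and 0.614 CPM after 3 days. Both 1-day libraries, with 11 and 12 counts, lay above both controls, with 2 and 8 counts. They lay within the wide range of the rosiglitazone libraries, which had 12 and 1 counts. Msra repairs oxidized methionine in proteins. The peak in its body (chr14:64327517-64327843) held 0.703 and 0.123 CPM with rosiglitazone and 0.768 and 0.153 CPM in control, then 3.98 and 4.60 CPM after 4 hours of forskolin, 1.65 and 0.951 CPM after 1 day and 0.675 and 0.460 CPM after 3 days.

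Among peaks above the median level of the set, the largest 1-day ratios to control were at Mprip, Ptgs1, Rusf1, Sh3pxd2a, Phldb2 and Zdhhc21, from 2.42 to 2.75. They were picked by this ratio, against control libraries that the rule also used, so their 1-day p-values are descriptions. Ptgs1 encodes cyclooxygenase 1, which makes the precursor of prostaglandins. The peak in its gene body (chr2:36243074-36243753) held 3.23 and 4.17 CPM with rosiglitazone and 5.28 and 5.44 CPM in control, then 17.5 and 16.5 CPM after 4 hours of forskolin, 13.4 and 14.6 CPM after 1 day and 7.61 and 5.22 CPM after 3 days. The 1-day libraries were apart from all control, rosiglitazone and 3-day libraries. The rise over control at 1 day was 1.23 ± 0.19 (log2 ± SE, adjusted p = 1.1e-06, edgeR). In the alternative fits, all run on this same picked peak, the log2 difference was 1.15 to 1.38.

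Zdhhc21 encodes a palmitoyltransferase. Its peak (chr4:82848702-82849414), within the gene, held 1.83 and 1.47 CPM with rosiglitazone and 1.83 and 2.07 CPM in control, then 10.3 and 10.6 CPM after 4 hours of forskolin, 5.76 and 4.38 CPM after 1 day and 2.70 and 1.38 CPM after 3 days. It rose at 1 day relative to control by 1.21 ± 0.30 (log2 ± SE, adjusted p = 0.0015, edgeR) and lay below both 4-hour libraries.

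Phldb2 encodes a protein that anchors microtubules near adhesion sites. The peak in its body (chr16:45758547-45759201) held 1.48 and 1.105 CPM with rosiglitazone and 2.02 and 1.46 CPM in control, then 5.58 and 5.02 CPM after 4 hours of forskolin, 4.71 and 4.49 CPM after 1 day and 1.60 and 1.76 CPM after 3 days. Sh3pxd2a encodes a scaffold of podosomes, the actin-rich adhesions of migrating cells. Its peak (chr19:47442028-47442444) held 1.27 and 1.105 CPM with rosiglitazone and 1.92 and 1.46 CPM in control, then 6.44 and 3.09 CPM after 4 hours of forskolin, 4.88 and 4.28 CPM after 1 day and 2.15 and 1.76 CPM after 3 days. Both were called higher than control at 1 day (edgeR, adjusted p = 0.0026 for Phldb2 and 0.0034 for Sh3pxd2a), and both calls ended without control library S2 (adjusted p = 0.0795 for Phldb2 and 0.081 for Sh3pxd2a).

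Mprip, which links myosin phosphatase to RhoA, had a peak 4.44 kb from the gene (chr11:59657846-59658033) with 0.352 and 0.491 CPM with rosiglitazone and 1.249 and 0.613 CPM in control, then 5.98 and 7.02 CPM after 4 hours of forskolin, 2.41 and 3.59 CPM after 1 day and 0.982 and 1.23 CPM after 3 days. The control values were low, and the 1-day call (log2 1.58 ± 0.41 (SE), adjusted p = 0.0026, edgeR) ended without S2 (adjusted p = 0.121) and without S6 (adjusted p = 0.0761).

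Other peaks were below control after 1 day. The smallest 1-day ratios among peaks above the median level of the set were at Hcar2, Ripply3, Kdm7a, Rab11fip4, Crtam and Tbx4, from 0.698 to 0.906. These peaks too were picked by the 1-day ratio, so their 1-day p-values are descriptions. Hcar2 encodes the niacin and hydroxybutyrate receptor, which couples to an inhibitory G protein and restrains cAMP-driven lipolysis in fat cells. A peak 8.43 kb from the gene (chr5:123854530-123855143) held 2.60 and 3.44 CPM with rosiglitazone and 4.03 and 3.37 CPM in control, then 9.10 and 8.96 CPM after 4 hours of forskolin, 2.59 and 2.43 CPM after 1 day and 3.38 and 3.53 CPM after 3 days. The 1-day libraries were below both controls, although the difference from control (-0.71 ± 0.28 on the log2 scale, SE) missed the threshold (adjusted p = 0.063, edgeR).

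Kdm7a encodes a histone demethylase. The peak near it (chr6:39249148-39249583), 42.4 kb from the gene, held 3.66 and 4.36 CPM with rosiglitazone and 4.13 and 4.60 CPM in control, then 9.10 and 10.8 CPM after 4 hours of forskolin, 3.12 and 3.43 CPM after 1 day and 5.16 and 3.53 CPM after 3 days. Again the 1-day libraries were the lowest of the forskolin series, and the difference from control was -0.57 ± 0.26 (log2, SE, adjusted p = 0.11, edgeR). Crtam, an immune receptor gene, had a peak (chr9:40995104-40995476) with 1.41 and 3.07 CPM with rosiglitazone and 2.59 and 2.60 CPM in control, then 8.17 and 5.39 CPM after 4 hours of forskolin, 1.82 and 2.38 CPM after 1 day and 2.21 and 1.23 CPM after 3 days.

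Tafa1, which encodes a secreted protein of the nervous system, held the only transiently opened peak called lower at 1 day than in control. It was named after its values were seen. The peak (chr6:96259191-96259628) held 1.62 and 2.70 CPM with rosiglitazone and 1.73 and 1.99 CPM in control, then 4.25 and 3.81 CPM after 4 hours of forskolin, 0.823 and 0.581 CPM after 1 day and 0.307 and 0.384 CPM after 3 days. The 1-day and 3-day libraries lay below all others. The 1-day log2 difference from control was -1.56 ± 0.46 (SE, adjusted p = 0.0080, edgeR).

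Genes of the cAMP pathway held these peaks at a share near that of all peaks. Of the 715 peaks assigned to 51 cAMP response and immediate-early genes, 125 met the 4-hour conditions, 25 were persistently opened and 6 (0.839%) were transiently opened. Over all 122984 peaks, 13263 met the 4-hour conditions, 2721 were persistently opened and 0.956% were transiently opened. Of peaks that met the 4-hour conditions, 6 of 125 on this list were transiently opened, against 8.87% over all such peaks. These 6 peaks lay at Crem, Pde10a, Pde4b, Pde7b, Per1 and Sik2. Pde10a, Pde4b and Pde7b encode phosphodiesterases, which degrade cyclic nucleotides, and Sik2 encodes a kinase that is inhibited by protein kinase A.

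Per1, a clock gene that cAMP is known to induce, had a peak in its body (chr11:69097637-69097766) with 4.71 and 5.46 CPM with rosiglitazone and 4.51 and 5.06 CPM in control, then 11.3 and 9.32 CPM after 4 hours of forskolin, 6.18 and 6.28 CPM after 1 day and 4.60 and 6.91 CPM after 3 days. The 4-hour libraries stood apart from the rest, and the 1-day libraries lay inside the range of the 3-day ones. Crem encodes activators and early repressors of CRE-driven genes. Its peak (chr18:3281794-3282113) held 0.141 and 0.307 CPM with rosiglitazone and 0.384 and 0.383 CPM in control, then 2.79 and 2.91 CPM after 4 hours of forskolin, 1.47 and 1.16 CPM after 1 day and 0.675 and 0.307 CPM after 3 days. All 1-day and 4-hour values exceeded the others, and the 1-day difference from control was 1.60 ± 0.62 (log2, SE, adjusted p = 0.052, edgeR).

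Peaks at Pde7b, Pde4b and Sik2 had 4-hour means of 5.20, 3.71 and 2.98 CPM. The Pde7b peak (chr10:20383652-20384050) held 1.34 and 1.84 CPM with rosiglitazone and 2.11 and 1.53 CPM in control, then 6.11 and 4.30 CPM after 4 hours of forskolin, 2.53 and 3.01 CPM after 1 day and 2.03 and 2.00 CPM after 3 days. At Pde4b the peak (chr4:102637471-102637792) held 1.20 and 0.491 CPM with rosiglitazone and 0.576 and 1.23 CPM in control, then 3.92 and 3.51 CPM after 4 hours of forskolin, 1.71 and 1.21 CPM after 1 day and 0.860 and 0.384 CPM after 3 days. In Sik2 (chr9:50936416-50936618) the values were 0.422 and 0.491 CPM with rosiglitazone and 0.576 and 0.230 CPM in control, then 3.05 and 2.91 CPM after 4 hours of forskolin, 0.471 and 1.27 CPM after 1 day and 0.307 and 0.460 CPM after 3 days. In each of these 3 peaks the 4-hour libraries were above all others.

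Thermogenic genes held none of the transiently opened peaks among 283 assigned, of which 27 met the 4-hour conditions and 4 were persistently opened. Glucose and insulin genes likewise held none among 283. The set made up 0.956% of all peaks, a share at which lists of this size hold few, so nothing is read from these zeros. Lipolysis genes held 2 of 167 (1.20%), at Abhd5, the activator of the triglyceride lipase ATGL, and at Mgll, the monoglyceride lipase. The Mgll peak (chr6:88763785-88764170) held 1.55 and 2.21 CPM with rosiglitazone and 2.79 and 1.99 CPM in control, then 6.17 and 8.17 CPM after 4 hours of forskolin, 4.29 and 5.23 CPM after 1 day and 2.89 and 2.84 CPM after 3 days. It was called higher than control at 1 day (log2 0.86 ± 0.30 (SE), adjusted p = 0.026, edgeR), but not without S2 (adjusted p = 0.266) or S6 (adjusted p = 0.197), nor with DESeq2 (adjusted p = 0.0967). The Abhd5 peak held 0.985 and 1.04 CPM with rosiglitazone and 1.44 and 0.996 CPM in control, then 3.98 and 3.93 CPM after 4 hours of forskolin, 2.06 and 2.59 CPM after 1 day and 1.53 and 1.07 CPM after 3 days.

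Adipocyte and PPAR target genes held 1 of 316 peaks (0.316%, against 0.956% of all peaks), in Pparg, the master regulator of fat cells. That peak (chr6:115437975-115438292) held 0.563 and 0.245 CPM with rosiglitazone and 0.480 and 1.07 CPM in control, then 2.59 and 2.60 CPM after 4 hours of forskolin, 1.00 and 0.951 CPM after 1 day and 0.982 and 0.691 CPM after 3 days. The NF-kB and cytokine list held 1 of 217 peaks (0.461%), near Ptgs2, the inducible cyclooxygenase gene. That peak held 0.633 and 0.491 CPM with rosiglitazone and 0.576 and 0.689 CPM in control. It held 3.19 and 2.30 CPM after 4 hours of forskolin. At 1 day it held 1.24 and 0.951 CPM, and at 3 days 0.491 and 0.460 CPM. At both, the 4-hour libraries stood above all others. The 1-day libraries at Ptgs2 also lay above all control, rosiglitazone and 3-day libraries, whereas those at Pparg did not.

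Clock genes held 5 of 224 peaks (2.23%), and the actin, SRF and YAP list held 5 of 285 (1.75%), against 0.956% of all peaks. The clock peaks lay at Rora, with 2, and at Npas2, Per1 and Arntl. Arntl encodes BMAL1, and Npas2 a partner of BMAL1. The Npas2 peak (chr1:39257695-39257917) held 0.703 and 1.105 CPM with rosiglitazone and 1.15 and 0.766 CPM in control, then 4.45 and 3.51 CPM after 4 hours of forskolin, 1.00 and 1.58 CPM after 1 day and 1.41 and 0.921 CPM after 3 days. At Arntl (chr7:113216321-113216525) the values were 0.422 and 0.123 CPM with rosiglitazone and 0.480 and 0.383 CPM in control, then 1.93 and 2.97 CPM after 4 hours of forskolin, 1.12 and 0.845 CPM after 1 day and 0.123 and 0.460 CPM after 3 days. In the actin list there were 2 peaks at Tpm1, a tropomyosin gene, and 1 each at Ccn2, a matricellular protein gene, and at Yap1 and Wwtr1, which encode the Hippo pathway co-activators. The stronger Tpm1 peak (chr9:67011480-67011985) held 6.05 and 4.17 CPM with rosiglitazone and 4.32 and 3.98 CPM in control, then 12.2 and 8.41 CPM after 4 hours of forskolin, 4.88 and 5.07 CPM after 1 day and 2.82 and 3.30 CPM after 3 days. The progenitor and matrix list held 2 of 222 peaks (0.901%), at Dlk1 and Postn. These counts are small, and the lists were chosen with earlier results of these data known.

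The set had peaks on every autosome and on the X and Y chromosomes. It was assigned to 835 named genes, and 767 of these had 1 transiently opened peak, 59 had 2 and 9 had at least 3. Another 238 peaks of the set were assigned to no gene. Within 10 kb, 36 peaks (3.06%) had another of the set. That share was not computed for all peaks or for persistently opened ones, so nothing is read from it. Trabd2b, which encodes a metalloprotease that acts on Wnt proteins, had 4 of its 45 peaks in the set. Cblb, Creb5, Eps8, Fmnl2, Fndc3b, Hivep3, Runx1 and Tsc22d1 had 3 each.

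The strongest Trabd2b peak (chr4:114595164-114596609) lay in the gene body and held 8.86 and 9.20 CPM with rosiglitazone and 12.5 and 11.0 CPM in control, then 23.6 and 24.8 CPM after 4 hours of forskolin, 21.2 and 20.3 CPM after 1 day and 15.2 and 14.0 CPM after 3 days. It rose at 1 day relative to control by 0.68 ± 0.15 (log2 ± SE, adjusted p = 0.00032, edgeR), in every alternative fit that was run. The other Trabd2b peaks had 1-day ratios to control of 1.40, 1.51 and 1.85.

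Creb5 encodes a CRE-binding factor of the ATF2 group. Its strongest peak (chr6:53337194-53338102) held 8.02 and 8.41 CPM with rosiglitazone and 9.70 and 6.89 CPM in control, then 18.1 and 18.6 CPM after 4 hours of forskolin, 7.70 and 10.8 CPM after 1 day and 8.47 and 5.83 CPM after 3 days. The 1-day libraries overlapped the controls, and the log2 difference was 0.02 ± 0.19 (SE). Eps8 encodes an actin-capping regulator, and a peak 31.7 kb from it (chr6:137681123-137681286) had the highest 1-day ratio to control of the whole set, 2.97. It held 0.774 and 0.430 CPM with rosiglitazone and 0.576 and 0.460 CPM in control, then 2.32 and 2.06 CPM after 4 hours of forskolin, 2.53 and 1.53 CPM after 1 day and 0.860 and 0.537 CPM after 3 days. That rise (log2 1.81 ± 0.55 (SE), adjusted p = 0.011, edgeR) was lost without S2 (adjusted p = 0.11) and without S5 (adjusted p = 0.169).

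Transiently opened peaks lay away from gene ends. Only 47 of 1176 (4.00%) were at a gene end of a protein-coding gene, against 3.12% of persistently opened peaks, 3.72% of all peaks opened at 4 hours and 13.2% of all peaks. About as many lay in gene bodies as among all peaks, 606 (51.5%) against 54.2%. The annotation at hand gave gene bounds without exons, so exonic and intronic peaks were not separated. Of the 1176 peaks, 215 (18.3%) lay more than 100 kb from any gene end, some of them within gene bodies. The share was 19.1% of persistently opened peaks, 18.2% of all peaks opened at 4 hours and 15.1% of all peaks. The median width of the set was 336.5 bp, against 407 bp in persistently opened peaks and 358 bp over all peaks. On the X chromosome 17 of 3284 peaks (0.518%) were in the set.

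Gene-end peaks of the set with the highest 4-hour levels were those of Cd53, Lias, Fmo4, Gsta1, Tg and Sptssb. Fmo4 encodes a flavin monooxygenase, and its peak (chr1:162792505-162793278) held 7.03 and 8.47 CPM with rosiglitazone and 7.78 and 7.51 CPM in control, then 18.8 and 16.6 CPM after 4 hours of forskolin, 8.65 and 9.93 CPM after 1 day and 9.82 and 8.59 CPM after 3 days. Gsta1 encodes a glutathione transferase with close copies in its family, so its reads may be shared. Its peak (chr9:78229351-78230081) held 5.06 and 5.89 CPM with rosiglitazone and 5.67 and 5.21 CPM in control, then 12.7 and 12.2 CPM after 4 hours of forskolin, 8.47 and 8.40 CPM after 1 day and 5.59 and 6.83 CPM after 3 days. Sptssb encodes a small subunit of serine palmitoyltransferase, the entry enzyme of sphingolipid synthesis. The peak over its end (chr3:69860931-69862230) held 3.87 and 4.17 CPM with rosiglitazone and 4.32 and 4.37 CPM in control, then 10.7 and 11.8 CPM after 4 hours of forskolin, 7.65 and 9.03 CPM after 1 day and 5.96 and 4.60 CPM after 3 days, and it was called higher than control at 1 day (log2 0.79 ± 0.22 (SE), adjusted p = 0.0059, edgeR), but not without S6 (adjusted p = 0.0948).

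The surrounding chromatin was examined in the nearest other peak of each transiently opened peak, at a median distance of 2.99 kb. These neighbours were not chosen by their values, although 21 were themselves in the set. Of 1153 neighbours tested, 302 (26.2%) were called higher after 4 hours than in control, against 18.7% for the nearest peaks of all peaks and 18.5% of all peaks tested. At 1 day the count was 161 (14.0%), against 13.1% for the neighbours of all peaks. By 3 days it was 99 (8.59%), against 8.62%, where 8.5% of all peaks tested were called higher. Around persistently opened peaks the shares were 31.1%, 25.1% and 19.2% at the same times. The median log2 difference from control in the neighbours of transiently opened peaks was 0.19, 0.11 and 0.01 at 4 hours, 1 day and 3 days, and in those of persistently opened peaks 0.32, 0.33 and 0.27. With the nearest peak outside the set taken instead, 290 of 1153 (25.2%) were called at 4 hours. These comparisons share their control libraries with the choice of the adjacent peaks. Those at 4 hours and 3 days also share their forskolin libraries with it, so the shares at these times are descriptions.

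**Figure D5:**
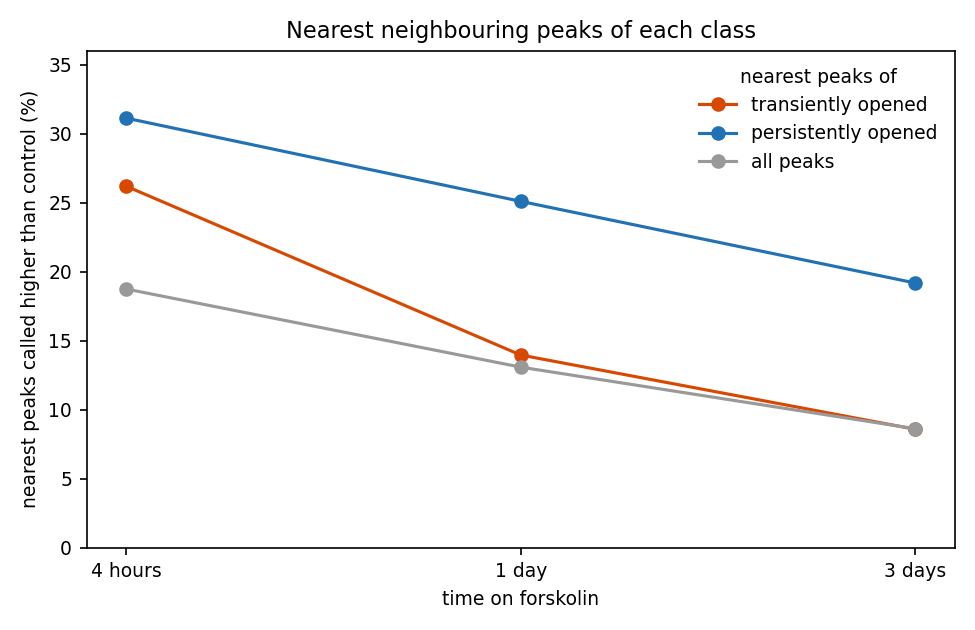
Percent of nearest neighbouring peaks called higher than control by edgeR at each time on forskolin, for the neighbours of transiently opened, persistently opened and all peaks. Neighbours of transiently opened peaks are at 26.2% after 4 hours and at 8.59% after 3 days, where those of all peaks are at 8.62%, while those of persistently opened peaks are at 19.2%. The control, 4-hour and 3-day libraries also chose the transiently and persistently opened peaks, so these shares are descriptions.

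The median ratio of rosiglitazone to control over the set was 0.876, with quartiles of 0.708 and 1.04, within the limit that chose the peaks. As a description, 67 of the 1176 peaks (5.70%) were called lower than control, where 3.32% of all peaks were. Both groups entered the choice, so nothing is read from that count. Within the set the rosiglitazone ratio was nearly unrelated to the 1-day forskolin ratio (Spearman's rho = 0.02 over 1176 peaks, which share the control libraries). The share of the 4-hour level kept at 1 day was somewhat larger in peaks that were more open in control (rho = 0.29) and in wider peaks (rho = 0.16). The rule used both control and 4-hour levels. Its 2 CPM floor lets peaks low in control in only with larger 4-hour ratios, so nothing is read from the 0.29. All of these values are descriptions across peaks of the same libraries, not tests.

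After 3 days of forskolin 4 of the 1176 peaks were called lower than in control by edgeR's quasi-likelihood test, where 5.32% of all peaks were. They lay at Tafa1 and Clic4 and nearest to Wac and Slit2, and were chosen for naming after their values were seen. Their 3-day levels were limited from above by the rule, so this is a description. The Clic4 peak, in the gene of an intracellular chloride channel protein, held 1.34 and 2.02 CPM with rosiglitazone and 2.31 and 0.996 CPM in control, then 5.11 and 3.93 CPM after 4 hours of forskolin, 1.71 and 1.85 CPM after 1 day and 0.921 and 0.307 CPM after 3 days.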

How the data were processed

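The authors deposited raw read counts per peak, with 1 column per library and no normalization. The submitters' processing notes name, without versions, fastp, SAMtools and Picard, Bowtie2 as an aligner, MACS2 as a peak caller, featureCounts, deepTools, and GRCm38 or mm10 as build. Peak calling on pooled or single libraries, counting of reads or fragments, duplicate removal and any shift for the transposase were not given in the sources used here. Each library had 10000 sorted nuclei and 12 cycles of PCR, per the labels' protocols. PCR reads without molecular identifiers are not independent molecules.

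Columns are named by group with a number from S1 to S10, used here for the libraries (S1 and S2 control, S3 and S4 forskolin 4 hours, S5 and S6 1 day, S7 and S8 3 days, S9 and S10 rosiglitazone). They are not tied to labelled replicate numbers. CPM was computed as count over column sum. The 118954 peaks that passed edgeR's default filter entered a robust quasi-likelihood fit (edgeR 4.0.16, R 4.3.3) over all 10 libraries with TMM factors, and p-values were Benjamini-Hochberg adjusted over all of them. SEs were derived from the F statistic. DESeq2 1.42.0 was an alternative, as were library size alone, no filter, a fit of 2 groups, leaving out libraries, and changes of the rule. The fit was tested on simulated data.

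A peak was given to the gene whose body contains its midpoint, failing that to the closest gene end up to 50 kb away, from RefSeq gene bounds of GRCm38.p6. Start-site windows came from RefSeq for the same build and covered all chromosomes but 18. The other motifs searched were AAAGGTCA (NBRE), TTGCGCAA and TTGCATCA (C/EBP), CACGTG (E-box), CCCNNGGG (EBF), GGAATG (TEAD) and the DR1, glucocorticoid receptor and NFI motifs. Named were the 8 highest peaks at 4 hours, the 8 largest 4-hour ratios, the 6 largest and 6 smallest 1-day ratios among peaks above the median level, and the 6 highest gene-end peaks, each ranking with at most 1 peak a gene and without Gm and Rik models. Also named were list members, peaks of the 6 genes with most members and those at printed windows. The members, lists and naming rule were chosen with earlier results of these data known. A peak that the naming rule picked is not reported here.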

Additional observations from a re-analysis of the deposited data

Results flagged for a closer look

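In 13 transiently opened peaks the 1-day level was called higher than the 3-day level by edgeR's quasi-likelihood test, out of 1176. The 3-day side had been chosen low, and the calls were not stable when libraries were left out, as given above. In 12 of them the log2 differences of 1 day from 3 days were 0.83 at Kansl1, 0.73 nearest to Rai14, 0.90 at Ccdc50, 1.40 at Phldb2, 0.79 at Dcbld2, 1.06 at Ptgs1, 0.92 at Wipf1, 0.66 at Otud7b, 1.23 at Zdhhc21, 0.93 at Slit2, 1.32 at Chrna9 and 1.11 nearest to H2al1j. The peaks nearest to Rai14 and H2al1j lay 96858 bp and 229064 bp from those genes and were assigned to no gene. The smallest adjusted p was that of Ptgs1, at 0.0011.

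Wipf1 encodes a partner of the actin regulator WASP. Its peak held 4.57 and 4.54 CPM with rosiglitazone and 5.57 and 3.60 CPM in control, then 12.0 and 8.90 CPM after 4 hours of forskolin, 10.8 and 11.1 CPM after 1 day and 6.39 and 4.68 CPM after 3 days. In the peak nearest to H2al1j both 1-day libraries, at 6.88 and 5.44 CPM, lay above the lower 4-hour library, with 5.78 and 5.02 CPM at 4 hours. At Slit2, which encodes an axon guidance ligand, a peak kept 9.53 and 8.98 CPM at 1 day and had 3.87 and 5.53 CPM at 3 days.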

How the results depend on the processing

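No paired analysis was possible because the table's columns carry no labelled replicate number. The motif search in central windows of the peaks was not run, since no genome sequence was used here. The size of the set was 620 with a 3-day limit of 1.1 times control and 2543 with 1.5 times, 592 with a floor of 4 CPM, 3656 with a 4-hour fold of 1.5 and 208 with a fold of 3, and 949 to 2104 with libraries left out of the rule. Calls higher at 1 day than in control numbered 68 with DESeq2, 268 with library size alone, 256 with TMM factors in the rule, 47 and 764 with the 3-day limits of 1.1 and 1.5, 424 and 43 with folds of 1.5 and 3, 52 to 139 with libraries left out of the fit, and 121 to 659 with libraries left out of the rule (294 without S2). Calls lower at 1 day than at 4 hours numbered 171 with DESeq2, 631 in a fit of the 2 groups, 247 and 767 with those 3-day limits, 755 and 106 with those folds, 125 to 204 with libraries left out of the fit, and 328 to 581 with libraries left out of the rule. Calls higher at 1 day than at 3 days numbered 1 with DESeq2, 7 in a fit of the 2 groups, 4 and 20 with those limits, 25 and 2 with those folds, 0 to 53 with libraries left out of the fit, and 5 to 20 with libraries left out of the rule.

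The median log2 ratio of 1 day to control was 0.43 with TMM factors and 0.43 with 1 CPM added. Under other rules it was 0.66 with TMM factors, 0.73 with 1 CPM added, 0.49 and 0.72 with the 3-day limits, 0.45 and 0.78 with the folds, and 0.53 to 0.76 with libraries left out (0.70 without S2). It was 0.52 to 0.67 with libraries left out of the ratio. The gene-end share was 1.96% within 500 bp, 6.97% within 2 kb, 8.16% with all annotated genes, 5.41% with the 4 CPM floor, and 3.68% to 5.29% with libraries left out. The cause of these shifts was not tested, apart from the rule changes, which by construction widen or narrow the set. Among the 77 named peaks, 613 values under alternatives gave 0 reversals of a called direction, 24 lost calls and 14 gained calls, while 19 values, at 13 peaks not called, changed sign. In alternatives added after seeing the data, the AP-1 share was 4 of 6 windows lying entirely inside a peak and 6 of 14 touched at all. Depth limits single peaks: the median count over the set was 16 in control library S1.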

Other observations

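The share of peaks that were transiently opened ran, among autosomes, from 0.685% on chromosome 10 to 1.17% on chromosome 3, and was 0.518% on the X chromosome. Slit2 encodes an axon guidance ligand, and 2 transiently opened peaks had it as their nearest gene. One of them was called higher at 1 day than at 3 days of forskolin, and the other was called lower after 3 days than in control (edgeR).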
